A study of Mus musculus with 12 samples.

Results

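The genes described here are Il17a, Il17f, Il21 and Il22, the cytokines by which T helper 17 (Th17) cells and follicular helper T (Tfh) cells are known. They were chosen by name, as a list of 4 among 45321 mouse genes with at least 1 quantified transcript, and all 4 passed the filter on low counts. With all 12 libraries, Il17a and Il22 passed it through the stimulated vehicle libraries (ethanol_PI), in which they are high. Any comparison with those libraries was thus favoured by the filter, and their calls there are given as a description. Il17f and Il21 reached the same count minimum in all unstimulated vehicle libraries too. For Il17f, however, 76.5% of the counts in those libraries were those of a noncoding transcript. The induced coding transcript of Il17f, tested by itself, passed the filter only through ethanol_PI with all 12 libraries. Messenger RNA was sequenced from CD4+ T cells of C57BL/6 mouse spleen, purified untouched, that is, by removing the other cells. The cells were held for 1 h with 1 µM cyclosporin A (CsA) or with its vehicle, ethanol. They were then left unstimulated (US) or given 10 nM of the phorbol ester PMA with 1 µM ionomycin (PI) for 2 h. This gave 4 groups of 3 libraries: ethanol_US, CsA_US, ethanol_PI and CsA_PI. All groups were total CD4+ cells of that strain with no further allele or polarising cytokine named, and the share of Th17 or Tfh cells among them was not measured. The labels do not say whether replicates came from separate animals. A p-value thus sets a difference between groups only against the spread of these libraries within a group, which could be technical.

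Il17a and Il17f encode secreted proteins that pair with themselves or each other and bind the Il17ra and Il17rc receptor chains, mainly on epithelial and stromal cells, where they call in neutrophils. Il22, a relative of Il10, acts through Il22ra1 and Il10rb on barrier epithelium, and Il21 acts through Il21r and the shared gamma chain Il2rg on B cells and T cells. Th17 cells depend on factors such as Stat3, Batf and Irf4, and Tfh cells on Bcl6. PMA activates protein kinase C and so AP-1 factors, ionomycin raises calcium and so activates calcineurin and NFAT, and CsA with cyclophilin inhibits calcineurin. The comparisons ask how far each cytokine transcript depends on that inhibited step.

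The promoters of the 4 genes are shown because the members moved together and the study's subject is NFAT and AP-1 on DNA. All 4 genes had an entry among the RefSeq promoters of build GRCm38.p6, which run from 250 bases before the transcription start to 50 after it. The windows are chr1:20730655-20730954 on the plus strand for Il17a and chr1:20784221-20784520 on the minus strand for Il17f. They are chr3:37232587-37232886 on the minus strand for Il21 and chr10:118204714-118205013 on the plus strand for Il22. Each is written 5′ to 3′ on the gene's strand, and capitals mark the motif matches listed after them.
Il17a: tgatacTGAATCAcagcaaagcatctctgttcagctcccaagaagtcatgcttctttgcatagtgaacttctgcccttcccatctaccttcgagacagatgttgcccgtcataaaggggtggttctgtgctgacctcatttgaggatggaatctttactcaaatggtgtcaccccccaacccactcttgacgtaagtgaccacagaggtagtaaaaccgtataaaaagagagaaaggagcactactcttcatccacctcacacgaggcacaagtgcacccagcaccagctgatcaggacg
Il17f: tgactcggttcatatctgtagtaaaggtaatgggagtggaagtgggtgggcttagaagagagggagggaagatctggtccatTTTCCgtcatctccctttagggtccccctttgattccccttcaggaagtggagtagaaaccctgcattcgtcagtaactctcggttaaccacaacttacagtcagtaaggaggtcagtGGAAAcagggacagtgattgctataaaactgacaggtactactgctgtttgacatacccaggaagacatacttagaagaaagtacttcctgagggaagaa
Il21: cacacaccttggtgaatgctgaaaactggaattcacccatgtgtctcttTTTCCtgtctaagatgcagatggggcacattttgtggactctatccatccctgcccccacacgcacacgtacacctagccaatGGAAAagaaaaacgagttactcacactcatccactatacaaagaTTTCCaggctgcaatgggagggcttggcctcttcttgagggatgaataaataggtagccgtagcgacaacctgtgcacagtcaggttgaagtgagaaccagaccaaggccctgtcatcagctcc
Il22: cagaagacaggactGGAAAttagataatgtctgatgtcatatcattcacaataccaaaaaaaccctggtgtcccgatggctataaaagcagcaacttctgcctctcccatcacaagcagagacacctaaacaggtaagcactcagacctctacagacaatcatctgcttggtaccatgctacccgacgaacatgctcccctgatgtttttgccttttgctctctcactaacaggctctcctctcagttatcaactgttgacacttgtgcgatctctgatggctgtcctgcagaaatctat

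The motifs searched, on both strands, were the NFAT core GGAAA, the AP-1 site TGANTCA and the STAT site TTCNNNGAA. Positions count from the start site as 0. The Il21 window held 3 NFAT cores, beginning at −201, −118 and −74, the Il17f window 2, at −168 and −50, and the Il22 window 1, at −236. The Il17a window held no NFAT core and 1 AP-1 match, at −244. No window held a STAT match, and in none did an NFAT core lie within 15 bases of an AP-1 match. Among all 32851 RefSeq promoters of the same length, 61.3% held an NFAT core, 8.3% a STAT match, 7.81% an AP-1 match and 0.865% an NFAT core with an AP-1 match within 15 bases. These matches are letters in a short window: they are not binding sites, and a window without a match says nothing about the factor.

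The libraries held between 10523816 and 18468044 estimated counts. Levels are given as CPM, counts scaled to library size with TMM factors. At these depths 0 counts of a gene still allowed a level of 0.141 CPM in CsA_US 1 and of 0.37 CPM in ethanol_PI 3, the lowest and highest such limits (3 counts, counting error only). CD4 T cell markers (Cd3e, Cd3d, Cd4, Trac, Cd28) were present in every group, at 1760 to 2930 CPM summed over the 5 genes. The library CsA_PI 2 stood apart from CsA_PI 1 and 3, with Il2 at 2.59 CPM beside 25.4 and 23.3 CPM, so results that rest on that group are also given without it. For Rrp9 and Nr4a2, picked after their values were seen, CsA_PI 2 stood near unstimulated vehicle cells. Rrp9 was at 60 CPM, beside 59.7 to 73.6 in ethanol_US and 143 and 145 in CsA_PI 1 and 3. Nr4a2 was at 131 CPM, beside 89.7 to 132 in ethanol_US and 51.7 to 55.5 in CsA_US. The cause was not tested, so percentages left in CsA_PI 2 cannot be read as the strength of inhibition by CsA. Summed B cell markers were highest in replicate 2 of every group, at 301 to 910 CPM against 64.5 to 147 CPM in the other libraries, and so were summed myeloid and dendritic markers, at 162 to 185 CPM against 27.9 to 52.1 CPM.

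Stimulation of vehicle-treated cells took Il17a from nearly no counts to about the length-scaled level of Il17f, raised Il17f and Il21 from low levels, and brought Il22 from nearly no counts to the lowest length-scaled level of the set. Il17f and Il21 both rose (adjusted p under 0.05, edgeR quasi-likelihood test, Benjamini-Hochberg over 14398 genes), beside 20.1% of all genes tested that were called higher and 19.7% called lower. Without CsA_PI 2, which shares the estimate of the spread, both were called again, beside 20.8% of genes. Il17a and Il22 were also called with and without that library. With all 12 libraries they had passed the filter only through ethanol_PI, so they are not counted against these shares. The coding transcript of Il17f, described below, had the same limit. In bulk RNA, fewer cells making a transcript and less of it in each cell cannot be told apart.

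Il17a (ENSMUSG00000025929, chromosome 1, 20730905 to 20734496, plus strand, mm10) had 0, 1 and 0 estimated counts in ethanol_US 1, 2 and 3. In ethanol_PI 1, 2 and 3 it had 1501, 741 and 671 counts, or 179, 71.9 and 82.7 CPM. The groups did not overlap, and replicate 1 stood above the other stimulated libraries. With 1 count in all of ethanol_US, the ratio of the depth-scaled sums was 5630, with an exact 95% counting interval from 1010 to 223000 (edgeR adjusted p = 7.65e-05).

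Il17f (ENSMUSG00000041872, chromosome 1, 20777146 to 20790617, minus strand), the neighbour and closest relative of Il17a, stood at 0.733, 0.708 and 1.28 CPM in ethanol_US 1, 2 and 3. It reached 167, 69.6 and 83.4 CPM in ethanol_PI 1, 2 and 3. Replicate 1 was again the highest stimulated library, and the lowest stimulated library lay far above every unstimulated one. On the log2 scale Il17f rose by 6.86 ± 0.74 (SE; edgeR adjusted p = 4.72e-05).

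Il21 (ENSMUSG00000027718, chromosome 3, 37222759 to 37232636, minus strand), the B cell help cytokine, stood at 1.07, 2.89 and 1.57 CPM in ethanol_US 1, 2 and 3. It reached 132, 244 and 196 CPM in ethanol_PI 1, 2 and 3. The groups did not overlap, and on the log2 scale Il21 rose by 6.69 ± 0.55 (SE; edgeR adjusted p = 7.41e-06). Unlike Il17a and Il17f, Il21 was lowest in ethanol_PI 1 and highest in ethanol_PI 2.

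Il22 (ENSMUSG00000074695, chromosome 10, 118204942 to 118210047, plus strand) had 0, 0 and 1 counts in ethanol_US 1, 2 and 3 and 71, 68 and 75 counts in ethanol_PI 1, 2 and 3. The stimulated levels were 8.46, 6.6 and 9.24 CPM, the tightest of the 4 genes. The ratio of the depth-scaled sums was 414, with an exact 95% counting interval from 73.5 to 16400 (edgeR adjusted p = 0.0023). Il22 has a near copy, Iltifb, 79.6 kb away, and 53.6% of the 31-base words of the Il22 transcript occur in the longer Iltifb transcript. Iltifb was given 2 estimated counts over all 12 libraries, and adding them to Il22 changed no call.

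**Figure D1:**
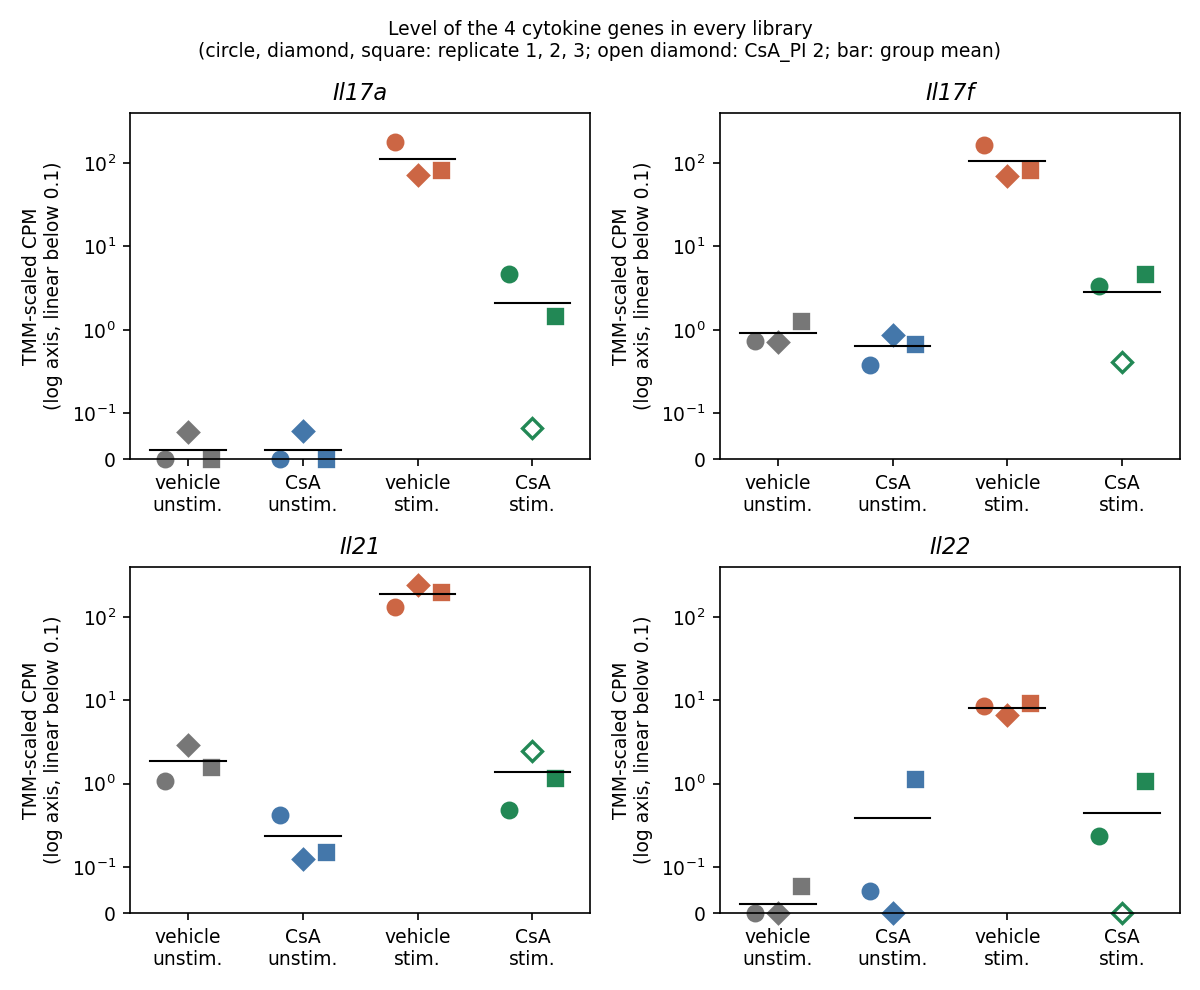
TMM-scaled CPM of Il17a, Il17f, Il21 and Il22 (vertical axis, log scale, linear below 0.1) in each of the 12 libraries by group, with a bar at the group mean; the open diamond is CsA_PI 2. The ethanol_PI libraries lie above all others for every gene, from 69.6 CPM upward for Il17a, Il17f and Il21 and from 6.6 CPM for Il22.

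Compared per length, as TPM, which scales each transcript for its length within a library, Il17a and the main coding transcript of Il17f were nearly equal in stimulated vehicle cells. The TPM of Il17a was 174, 78.4 and 88.5 in ethanol_PI 1, 2 and 3, and that of the Il17f coding transcript 160, 73.2 and 86.4. Their ratio was 1.09, 1.07 and 1.02, although the level itself was highest in replicate 1 for both. Il21 stood at 59, 126 and 106 TPM in the same libraries, below Il17a in replicate 1 and above it in replicates 2 and 3. Il22 was the lowest of the 4 in each library, at 8.77, 7.68 and 10.6 TPM.

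The small Il17f signal of unstimulated cells was assigned mainly to another transcript than the one induced. Il17f had 4 quantified transcripts. The main one of 3 exons (ENSMUST00000039046) is called the coding transcript here. A noncoding transcript (ENSMUST00000190692) ends 3.21 kb upstream of it and shares none of its 31-base words. The noncoding transcript was given 76.5% of the gene's counts in ethanol_US and 83.3% in CsA_US, but 0.712% in ethanol_PI. The coding transcript had 1.64, 0 and 3.31 estimated counts in ethanol_US 1, 2 and 3, and 1392, 697 and 660 in ethanol_PI 1, 2 and 3. In an edgeR fit of all 35862 transcripts tested it rose by 9.78 ± 1.30 (log2, SE; adjusted p = 0.000906). With all 12 libraries it passed the filter only through ethanol_PI, in which it is high, so its call is given as a description. It is not counted against the 17.3% of transcripts called in either direction. The noncoding transcript had 11.2, 12.5 and 13.1 counts in ethanol_US and 4.51, 7.89 and 7.52 in ethanol_PI, and after scaling for depth its log2 fold change was −0.00 ± 0.68 (adjusted p = 0.999). The rise of Il17f was thus 6.86 over all its transcripts and 9.78 on the coding transcript of 3 exons. A second coding transcript (ENSMUST00000189301) shares 31-base words with that one and with the noncoding one. It was given 12.7% of the gene's counts in ethanol_US and 0.987% in ethanol_PI. With all 12 libraries it did not pass the filter. Without CsA_PI 2 its log2 fold change was 2.66 ± 1.56 (edgeR on transcripts, adjusted p = 0.309). The library type states no strand, so reads of an antisense RNA at the place of the noncoding transcript could not be separated.

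**Figure D2:**
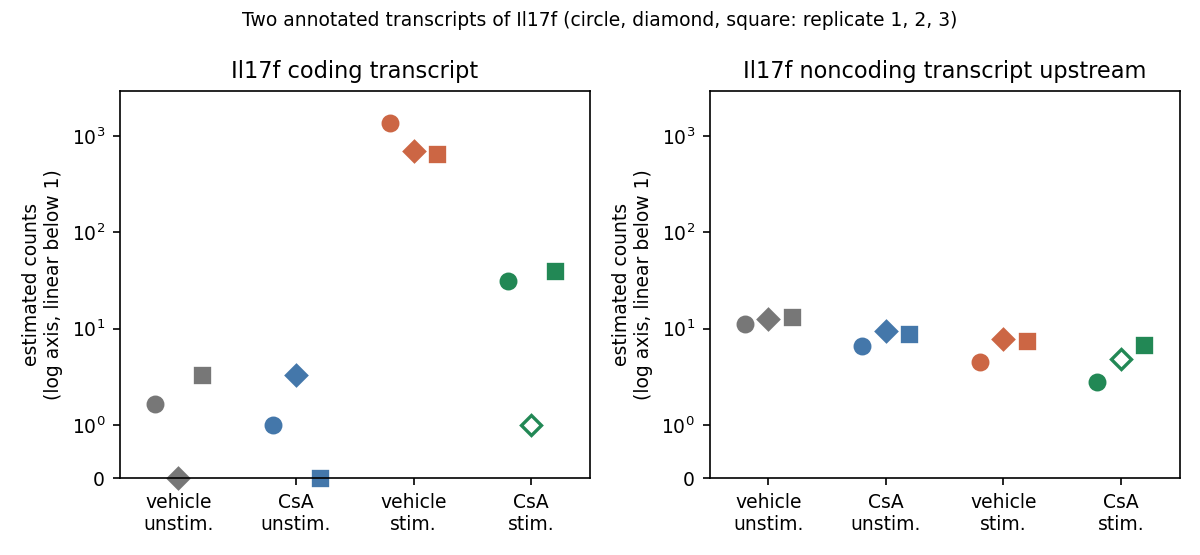
Estimated counts (vertical axis, log scale, linear below 1) of the Il17f coding transcript (left) and of the noncoding transcript upstream of it (right) in each library by group, not scaled for depth; the open diamond is CsA_PI 2. The coding transcript lies between 660 and 1392 counts in ethanol_PI and at 3.31 or fewer in every unstimulated library, while the noncoding one lies between 2.76 and 13.1 in all 12.

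Il21 counts fell mainly on its long coding transcript, ENSMUST00000029273, with 85.5% of the gene's counts in ethanol_PI. A retained-intron transcript took 9.55% and the short coding transcript 4.98%. The long transcript alone rose by 6.66 ± 0.60 (edgeR on transcripts, adjusted p = 0.000152), close to the value for the whole gene.

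CsA given before the stimulus took all 4 transcripts most of the way back. Il17f and Il21 fell in CsA_PI against ethanol_PI, beside 12.7% of genes tested that were called lower and 10.3% called higher, and both fell again without CsA_PI 2, beside 12.1% of genes. With all 12 libraries Il17a and Il22 passed the filter only through ethanol_PI, and both were called lower. Without CsA_PI 2 Il17a was called and Il22 was not.

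Il21 had the most negative log2 fold change of the 4, a rank that was not tested. It stood at 0.476, 2.46 and 1.18 CPM in CsA_PI 1, 2 and 3, which is 0.249%, 1.29% and 0.617% of its ethanol_PI mean of 191 ± 56.1 CPM (SD, n = 3). Every CsA_PI library lay below every ethanol_PI library. The log2 fold change was −7.08 ± 0.57 (edgeR adjusted p = 1.2e-05) and −7.85 ± 0.58 without CsA_PI 2 (adjusted p = 4.63e-06). CsA_PI 2 was here the highest of its group, whereas it was the lowest for the other members.

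Il17a stood at 4.68, 0.0682 and 1.47 CPM in CsA_PI 1, 2 and 3, from 59, 1 and 15 counts. These are 4.21%, 0.0614% and 1.32% of its ethanol_PI mean of 111 ± 58.9 CPM. The groups did not overlap, and the log2 fold change was −5.75 ± 0.88 (edgeR adjusted p = 0.00102). Without CsA_PI 2 it was −5.10 ± 0.61 (adjusted p = 0.000193).

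Il17f stood at 3.33, 0.409 and 4.7 CPM in CsA_PI 1, 2 and 3, or 3.12%, 0.384% and 4.41% of its ethanol_PI mean of 107 ± 52.8 CPM. The groups did not overlap, and the log2 fold change was −5.27 ± 0.68 (edgeR adjusted p = 0.000284), or −4.70 ± 0.45 without CsA_PI 2 (adjusted p = 1.68e-05). The coding transcript, at 31.5, 1 and 39.7 counts, fell by 5.55 on the log2 scale, SE 1.02 (edgeR on transcripts, adjusted p = 0.00922). With all 12 libraries that call was favoured by the filter and is not counted against the 6.79% of transcripts called. Without CsA_PI 2 the log2 effect on the coding transcript was −4.97 (edgeR adjusted p = 0.00415). The noncoding transcript had 2.76, 4.79 and 6.69 counts, and its log2 fold change was −0.79 ± 0.70 (adjusted p = 0.61), or −0.70 ± 0.79 without CsA_PI 2 (adjusted p = 0.75). Of the gene's counts in CsA_PI 2, 82.7% were those of the noncoding transcript.

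Il22 had 3, 0 and 11 counts in CsA_PI 1, 2 and 3, or 0.238, 0 and 1.08 CPM against a mean of 8.1 ± 1.36 CPM in ethanol_PI. That left 2.94%, 0% and 13.3% of the vehicle level, the widest range of the 4 genes. The groups did not overlap, and the log2 fold change was −4.27 ± 1.24 (edgeR adjusted p = 0.0278). The call was lost when any of 6 libraries was left out, with log2 fold changes of −4.24 without ethanol_US 3, −4.24, −4.39 and −4.16 without ethanol_PI 1, 2 and 3, and −3.98 and −3.61 without CsA_PI 1 and 2 (adjusted p from 0.0502 to 0.0829). It was lost with DESeq2 (−4.22, adjusted p = 0.0591) and with no filter on low counts (−4.22, adjusted p = 0.0854).

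**Figure D3:**
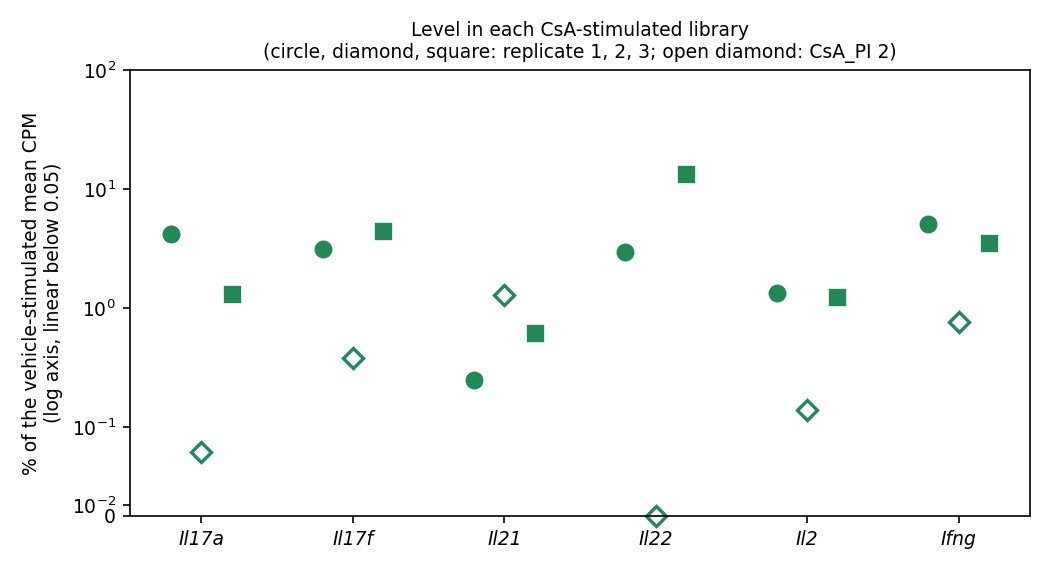
CPM of each CsA_PI library as a percentage of the ethanol_PI mean (vertical axis, log scale, linear below 0.05) for the 4 members and their genomic neighbours Il2 and Ifng; the open diamond is CsA_PI 2. Il21 lies between 0.249% and 1.29%, and the open diamond is the lowest point for every gene but Il21.

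The response left after CsA was not in one order in all libraries. In CsA_PI 1 the percentage left was highest for Il17a (4.21%) and lowest for Il21 (0.249%), and in CsA_PI 3 it was highest for Il22 (13.3%) and again lowest for Il21. The TPM ratio of Il17a to the Il17f coding transcript, close to 1 in each ethanol_PI library, was 1.89 in CsA_PI 1 and 0.38 in CsA_PI 3. These rest on 59 and 15 counts of Il17a. A retained-intron transcript of Il17f has 92.5% of its 31-base words in the coding one. It took 1.613 TPM in CsA_PI 1, beside 2.665 for the coding one, and 0.383 beside 4.777 in CsA_PI 3. The ratio thus depends on how reads were divided between them, which was not tested. In CsA_PI 2 Il17a and the Il17f coding transcript each had 1 count. Il2 kept 1.35%, 0.138% and 1.24% of its vehicle level and Ifng 5.07%, 0.764% and 3.53%.

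Stimulation in the presence of CsA (CsA_PI against CsA_US) was called for neither Il17f nor Il21 in all 12 libraries, beside 3.9% of genes tested that were called higher. Without CsA_PI 2 Il17f was called higher, beside 14.1%. Il17a was called higher with and without that library. With all 12 libraries it had passed the filter only through ethanol_PI, so it is not counted against these shares. Il17a had 0, 1 and 0 counts in CsA_US 1, 2 and 3 and 75 in all of CsA_PI, a depth-scaled ratio of 102 with an exact 95% counting interval from 17.7 to 4070 (edgeR adjusted p = 0.0475). Leaving out CsA_PI 2 gave a ratio of 165, with an interval from 28.7 to 6590 (adjusted p = 0.000783). Leaving out any other single library lost the call, with fitted log2 fold changes of 4.61 to 7.81 and adjusted p from 0.0612 to 0.207.

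Il17f stood at 0.377, 0.863 and 0.675 CPM in CsA_US 1, 2 and 3, below CsA_PI 1 and 3 and on both sides of CsA_PI 2. Its log2 fold change was 2.12 ± 0.73 (edgeR adjusted p = 0.0994), and 2.64 ± 0.47 without CsA_PI 2 (adjusted p = 0.00116). DESeq2 called it in all 12 libraries (2.13, adjusted p = 0.00998).

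Il21 stood at 0.424, 0.123 and 0.15 CPM in CsA_US 1, 2 and 3, all below the lowest CsA_PI library. These levels rest on 13.4 estimated counts over the group. In CsA_US 2 and 3 they lie below the level that 0 counts would still allow (0.185 and 0.225 CPM). The log2 fold change was 2.44 ± 0.69 (edgeR adjusted p = 0.0598), or 1.6 ± 0.77 without CsA_PI 2 (adjusted p = 0.149). DESeq2 called it in all 12 libraries (2.49, adjusted p = 0.00314).

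Il22 had 1, 0 and 15 counts in CsA_US 1, 2 and 3, a spread as wide as that of CsA_PI. The 2 groups overlapped, and the log2 fold change was 0.18 ± 1.29 (edgeR adjusted p = 0.952). It was −0.4, −0.47 and −1.6 without CsA_US 1, CsA_US 2 and CsA_PI 3.

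The difference between these responses was tested as the interaction, the log2 effect of stimulation under CsA minus that in vehicle. It was negative and called for Il17f and Il21, beside 6.19% of genes tested that were called negative, and for both again without CsA_PI 2, beside 7.31%. With all 12 libraries Il22 passed as well, but it had passed the filter only through ethanol_PI. The call of Il22 was lost without any 1 of 8 libraries. For Il17f it was −4.74 ± 1.01 (edgeR adjusted p = 0.0144), and −4.16 ± 0.65 without CsA_PI 2 (adjusted p = 0.00131). On the Il17f coding transcript alone it was −5.31 ± 2.15 and did not pass (adjusted p = 0.292), where 1.83% of transcripts were called, nor did it without CsA_PI 2 (−4.72, adjusted p = 0.163).

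For Il21 the interaction was −4.25 ± 0.98 (edgeR adjusted p = 0.019), and −5.03 ± 0.98 without CsA_PI 2 (adjusted p = 0.00636). It rests on 13.4 estimated counts in CsA_US, and did not pass without CsA_US 1 (−3.4, adjusted p = 0.192) or with no filter on low counts (−4.16, adjusted p = 0.0625). For Il17a, with 1 count in each unstimulated group, the fitted value was −5.77 ± 5.23 (adjusted p = 0.56), so its size could not be estimated.

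For Il22 the fitted interaction was −7.98 ± 2.13 (edgeR adjusted p = 0.0379) and rests on 1 count in ethanol_US and 16 in CsA_US. The values without each of those 8 libraries were −7.51, −7.55 and −9.59 without ethanol_US 1, 2 and 3, −4.55 without CsA_US 3, −7.97, −8.11 and −7.89 without ethanol_PI 1, 2 and 3, and −7.69 without CsA_PI 1 (adjusted p from 0.0638 to 0.428).

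In unstimulated cells CsA gave no call among the 4 genes with edgeR, where 1 of 14398 genes was called (0.00695%), 465 had an unadjusted p under 0.05, and DESeq2 called 17. Il21 came nearest. Its 3 CsA_US libraries, at 0.123 to 0.424 CPM from 13.4 estimated counts in all, lay below all 3 ethanol_US libraries, at 1.07 to 2.89 CPM. The log2 difference was −2.83 ± 0.66 (edgeR unadjusted p = 0.00104, adjusted p = 0.83). DESeq2 gave −2.89 with an adjusted p of 0.00566, so the call depends on the tool.

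Il17f overlapped between CsA_US and ethanol_US, with a log2 difference of −0.53 ± 0.77 (edgeR adjusted p = 1). Il17a had 1 count in each group, too few for a fold. Il22 had 16 counts against 1, a depth-scaled ratio of 16.3 (exact 95% counting interval 2.54 to 685; edgeR adjusted p = 1), and 15 of the 16 counts lay in CsA_US 3. Without that library the fitted log2 difference was 0.32.

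The order of the group means below ethanol_PI differed between genes. CsA_PI was not tested against ethanol_US, and several of these means rest on few counts. For Il17a the order was ethanol_PI, CsA_PI and then both unstimulated groups, which did not differ beyond their spread; CsA_PI 2, with 1 count, lay at their level. The means of Il17f were 107 ± 52.8 CPM in ethanol_PI, 2.81 ± 2.19 in CsA_PI, 0.907 ± 0.324 in ethanol_US and 0.638 ± 0.245 in CsA_US, and the last 3 overlapped. Without CsA_PI 2 the CsA_PI mean of Il17f was 4.02 CPM, and both of its libraries lay above all unstimulated ones. The means of Il21 came in another order, at 191 ± 56.1 CPM in ethanol_PI, 1.84 ± 0.939 in ethanol_US, 1.37 ± 1.00 in CsA_PI and 0.232 ± 0.166 in CsA_US. CsA_PI and ethanol_US overlapped for Il21, with or without CsA_PI 2 (mean 0.826 CPM without it), and CsA_US lay below both. For Il22 CsA_PI (0.439 ± 0.566 CPM) and CsA_US (0.391 ± 0.636 CPM) did not differ beyond their spread, and without CsA_PI 2 the CsA_PI mean was 0.658 CPM.

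Other cells that can make these cytokines were looked for by their markers. Summed CPM over the 7 annotated of 9 gamma delta T cell markers, led by the receptor gene Trdc, was 84.7 to 127 in ethanol_US, 101 to 114 in CsA_US, 140 to 246 in ethanol_PI and 116 to 120 in CsA_PI. With stimulation in vehicle the list split, with 2 of 7 higher and 2 lower (median 0.21). Trdc rose by 1.37 ± 0.32 (log2, SE; edgeR adjusted p = 0.00449) and Sox13, a factor of these cells, by 2.07 ± 0.65 (adjusted p = 0.0231). The receptor genes Tcrg-C1 and Tcrg-C4 fell, by 1.92 ± 0.29 and 1.14 ± 0.22 (adjusted p = 0.000313 and 0.00161). The highest sum, in ethanol_PI 2, included 147 CPM of Blk, a kinase that B cells express as well, which stood at 10.8 and 19.3 CPM in ethanol_PI 1 and 3. The 5 genes listed for innate lymphoid cells (Il1rl1, Ncr1, Kit, Id2 and Tnfsf11) are not specific to type 3 cells. They summed to 149 to 183 CPM in ethanol_US, 152 to 198 in CsA_US, 324 to 390 in ethanol_PI and 143 to 325 in CsA_PI. Id2 accounted for 102 ± 9.63 CPM in ethanol_US, and Tnfsf11, which activated T cells also express, for 195 ± 29.7 CPM in ethanol_PI. No marker of either list was at 0 throughout a group, and the part of these cells in the cytokine results was not tested. Il21 was highest in replicate 2 of ethanol_US, ethanol_PI and CsA_PI, the replicate with the most B cell and myeloid marker RNA in each group, but in CsA_US it was lowest in replicate 2, and the part of those cells was not tested either.

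The receptors for these cytokines gave calls in both directions. Of 10 receptor genes, 7 were tested: with stimulation in vehicle Il21r and Il2rg rose and Il10rb fell, and with CsA in stimulated cells Il10rb rose. Over all genes tested, 39.8% and 23.0% were called in either direction in these 2 comparisons, so counts of 3 and 1 of 7 say nothing particular about the receptors. Il21r stood at 429 ± 76.9 CPM in ethanol_US and 706 ± 38.1 in ethanol_PI, a rise of 0.72 ± 0.18 (edgeR adjusted p = 0.00776). Il2rg went from 1091 ± 390 CPM to 3536 ± 394, a rise of 1.70 ± 0.47 (adjusted p = 0.0129). Il10rb, the chain shared with the Il10 receptor, fell by 0.89 ± 0.29 (adjusted p = 0.0275) and stood 0.89 ± 0.29 higher with CsA (adjusted p = 0.0432), a call that was lost without CsA_PI 2 (0.81, adjusted p = 0.0796).

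Il17ra was abundant without a call, at 439 ± 74.2 CPM in ethanol_US and 306 ± 25.2 in ethanol_PI (log2 −0.52 ± 0.25, edgeR adjusted p = 0.122). Without CsA_PI 2 its fall with stimulation passed (−0.58, adjusted p = 0.0411). Its partner Il17rc had 6, 18, 8 and 11 counts in ethanol_US, CsA_US, ethanol_PI and CsA_PI, and was not tested. Il22ra1, the specific chain for Il22, had 1 count in total over the 12 libraries.

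Among 9 receptors for cytokines and costimuli that induce Th17 and Tfh cells, 5 rose with stimulation in vehicle and 1 fell, with a median log2 fold change of 1.06, beside 20.1% and 19.7% of all genes tested and a median of −0.025. With CsA in stimulated cells 1 rose and 4 fell, with a median of −0.67, beside 10.3% and 12.7% of all genes and a median of 0.059. Without CsA_PI 2, 5 rose and 2 fell with stimulation (beside 20.8% and 22.9% of genes), and 1 rose and 5 fell with CsA (median −1.02, beside 10.4% and 12.1%). The added gene, Il6ra, the Il6-binding chain, was named after its values were seen: its log2 effect of CsA was −0.56 in all libraries (adjusted p = 0.544) and −1.94 without CsA_PI 2 (adjusted p = 8.19e-06). Il23r, the receptor for the cytokine that maintains Th17 cells, stood at 2.31, 0.885 and 2.44 CPM in ethanol_US 1, 2 and 3 and 14.2, 8.92 and 8.5 CPM in ethanol_PI 1, 2 and 3. It rose by 2.48 ± 0.58 (edgeR adjusted p = 0.00499). In CsA_PI 1, 2 and 3 it stood at 0.793, 0.751 and 3.43 CPM, within or near the unstimulated range, and the log2 effect of CsA was −2.69 ± 0.60 (adjusted p = 0.00637), or −2.31 without CsA_PI 2 (adjusted p = 0.0144). Il6st, the signalling chain of the Il6 receptor, rose by 2.49 ± 0.32 and fell by 1.40 ± 0.31 with CsA (adjusted p = 8.81e-05 and 0.00618). Tgfbr2, a TGF-β receptor chain, went the other way, falling by 1.47 ± 0.26 with stimulation and rising by 2.54 ± 0.27 with CsA (adjusted p = 0.00089 and 4.52e-05). Without CsA_PI 2 the effects of CsA on Il6st and Tgfbr2 were −1.02 and 2.81 (adjusted p = 0.00157 and 3.22e-06).

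Of 14 Th17 factors and markers, 8 rose with stimulation in vehicle and none fell (median log2 fold change 1.24), and with CsA in stimulated cells 5 fell and none rose (median −0.83). Over all genes tested, 20.1% rose and 19.7% fell with stimulation and 10.3% rose and 12.7% fell with CsA. Without CsA_PI 2, 4 fell with CsA (median −0.74), beside 12.1% of genes. Ccl20, the chemokine that Th17 cells secrete, rose by 6.13 ± 1.03 and with CsA fell by 5.09 ± 0.98 (edgeR adjusted p = 0.000655 and 0.00279), with a log2 effect of −4.63 without CsA_PI 2 (adjusted p = 0.00818). Rora, a nuclear receptor that Th17 cells express, at 149 ± 31.8 CPM in ethanol_US, gave 0.16 ± 0.27 with stimulation and 0.05 ± 0.27 with CsA (adjusted p = 0.681 and 0.927), or 0.28 with CsA without CsA_PI 2 (adjusted p = 0.509).

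Transcription factors of the Th17 programme had smaller log2 effects of CsA than the cytokines, a difference that was not tested. Irf4, which binds DNA together with Batf and Jun proteins, stood at 2441 ± 372 CPM in ethanol_PI and at 698, 104 and 831 CPM in CsA_PI 1, 2 and 3, with a log2 effect of CsA of −2.17 ± 0.68 (edgeR adjusted p = 0.042), or −1.64 without CsA_PI 2 (adjusted p = 0.0406). Batf rose by 2.52 ± 0.52 with stimulation (adjusted p = 0.003), and its log2 difference with CsA was −1.10 ± 0.50 (adjusted p = 0.146), or −0.61 without CsA_PI 2 (adjusted p = 0.18). Stat3 rose by 1.05 ± 0.19 and fell by 0.67 ± 0.19 with CsA (adjusted p = 0.000896 and 0.021), a fall that was lost without CsA_PI 2 (−0.51, adjusted p = 0.0513). Ahr, a receptor that promotes Il22, rose by 2.08 ± 0.36 and fell by 1.45 ± 0.36 with CsA (adjusted p = 0.000755 and 0.0109), with a log2 effect of −1.21 without CsA_PI 2 (adjusted p = 0.0323). Maf, a factor for Il21, was at 8.13 ± 1.96 CPM in ethanol_US and 5.1 ± 0.417 in ethanol_PI, with no call (−0.67, adjusted p = 0.184).

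Of 14 Tfh factors and markers, 13 were tested: with stimulation in vehicle 6 rose and 2 fell (median 0.60), and with CsA in stimulated cells 1 rose and 7 fell (median −0.68). Over all genes tested these shares were 20.1% and 19.7% with stimulation, so that the 2 of 13 that fell were no more than the background, and 10.3% and 12.7% with CsA. Without CsA_PI 2, 1 rose and 8 fell with CsA (median −0.90), beside 10.4% and 12.1% of genes. Bcl6, the Tfh lineage factor, moved opposite to Il21. It stood at 152, 121 and 186 CPM in ethanol_US 1, 2 and 3, at 49.3, 55.5 and 52.5 CPM in ethanol_PI, and at 193, 126 and 209 CPM in CsA_PI. The stimulated vehicle libraries were below all others, with a log2 fold change of −1.54 ± 0.23 for stimulation and 1.75 ± 0.23 for CsA (edgeR adjusted p = 0.000231 and 0.000188). Its interaction was 1.92 ± 0.32 (adjusted p = 0.00282), where 3.54% of genes tested were called positive. Without CsA_PI 2 the effect of CsA was 1.97 and the interaction 2.15 (adjusted p = 1.02e-05 and 0.000157). Il4, which Tfh and Th2 cells share, rose by 6.35 ± 0.47 and fell by 6.53 ± 0.47 with CsA, and Cd40lg, the ligand that licenses B cells, rose by 5.60 ± 0.44 and fell by 4.62 ± 0.42. The log2 effects of CsA on Il4 and Cd40lg were −6.54 and −4.23 without CsA_PI 2.

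**Figure D4:**
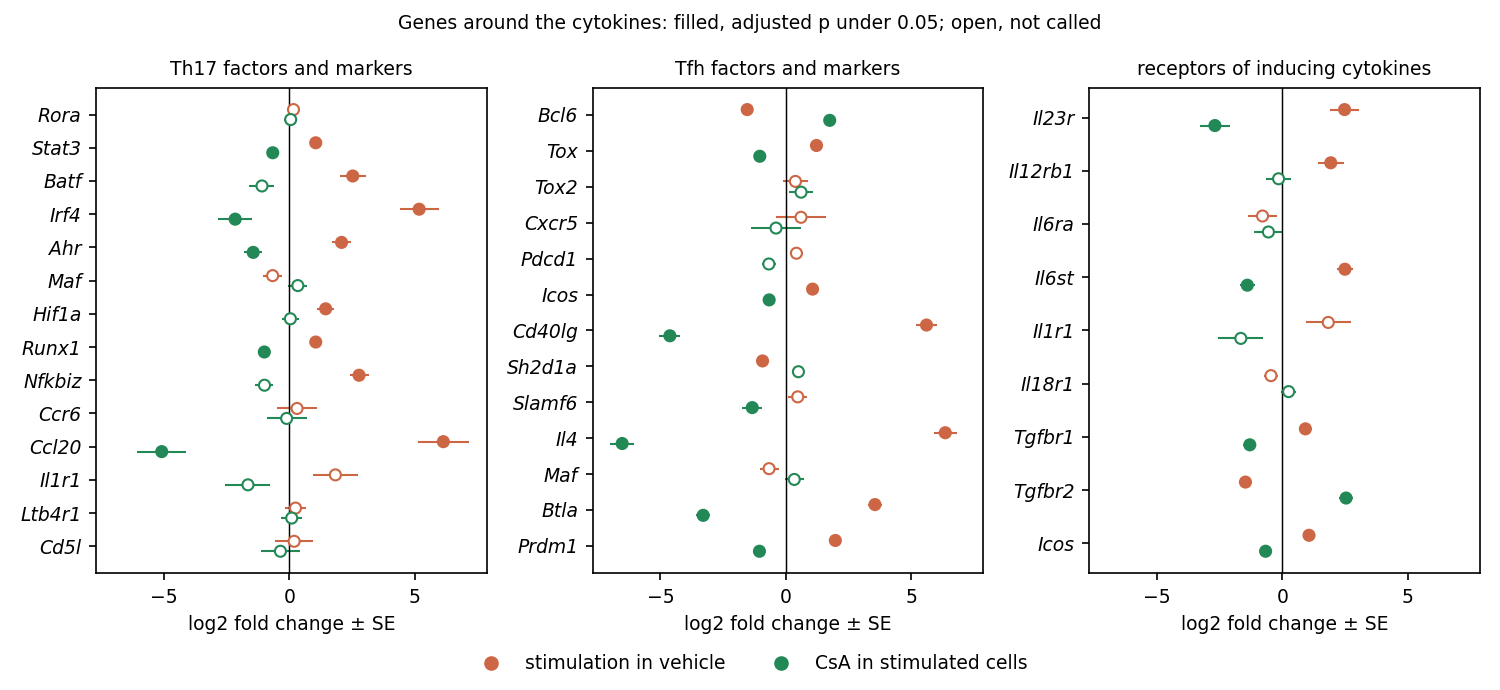
Log2 fold change ± SE (horizontal axis) of stimulation in vehicle (orange) and of CsA in stimulated cells (green) for Th17 genes, Tfh genes and receptors of inducing cytokines; filled points passed an edgeR adjusted p of 0.05. Most filled orange points lie right of 0 and most filled green points left of it, with Bcl6 and Tgfbr2 the other way round; Bcl6 stands at −1.54 and 1.75.

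Each cytokine gene lies near another induced cytokine gene. Il17a and Il17f are 42.6 kb apart with no annotated gene between them, Il2 and Il21 are 96.8 kb apart with the long noncoding RNA Gm12532 between them, and Il22 and Ifng are 231 kb apart. Of 14 neighbour names listed, 12 matched an annotated gene and 9 were tested. With stimulation in vehicle 5 rose and 2 fell, with a median log2 fold change of 0.58, and with CsA 4 fell and none rose, with a median of −0.55, or −0.79 without CsA_PI 2, where 4 fell again. Over all genes tested, 20.1% rose and 19.7% fell with stimulation and 12.7% fell with CsA, so the 2 neighbours that fell with stimulation were about the background share. The 5 that rose and the 4 that fell with CsA include Adad1, which passed the filter only through ethanol_PI, so its calls were favoured by the filter. Il2 rose by 9.91 ± 0.84 and fell by 6.79 ± 0.73 with CsA, and Ifng rose by 6.94 ± 0.65 and fell by 5.0 ± 0.60. The effects of CsA on Il2 and Ifng were −6.23 and −4.50 without CsA_PI 2.

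Beyond the cytokines, some genes around Il2 and Il21 were called as well. Fgf2, also listed for that locus, was tested and was not called for stimulation in vehicle or for CsA in stimulated cells. Adad1, a gene of a testis RNA-binding protein beside Il2, had 0 counts in all unstimulated libraries, 12, 25 and 21 counts in ethanol_PI 1, 2 and 3, and 1, 1 and 0 in CsA_PI (edgeR adjusted p = 0.00073 for stimulation and 0.00427 for CsA). Having passed the filter only through ethanol_PI, its calls are given as a description. Spata5 went from 24.8 ± 1.18 CPM in ethanol_US to 143 ± 11.6 in ethanol_PI and 34.1 ± 4.44 in CsA_PI (log2 2.53 ± 0.18 and −2.06 ± 0.17). Without CsA_PI 2 the calls for CsA held for Adad1 (adjusted p = 0.0151) and Spata5 (−1.92, adjusted p = 7.03e-06). 4932438A13Rik rose by 0.58 ± 0.20 (adjusted p = 0.0328) and gave 0.003 ± 0.196 with CsA (adjusted p = 0.995), or 0.25 without CsA_PI 2 (adjusted p = 0.224). The neighbours of the other loci that encode no cytokine were not called higher. Mcm3, beside Il17a and Il17f, gave 0.25 ± 0.15 with stimulation (adjusted p = 0.2), Paqr8 at the same locus fell by 1.58 ± 0.49 (adjusted p = 0.0224), and Mdm1, beside Il22, fell by 1.06 ± 0.34 (adjusted p = 0.026).

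Relatives of the members were mostly below the filter. Of 10 listed genes of the Il17, Il10 and Il2 families only Il10 and Il2 were tested with all 12 libraries, and Il17b, Il17c, Il17d, Il25, Il19, Il20, Il24 and Il15 did not pass the filter. Il10, a regulatory cytokine of the family to which Il22 belongs, stood at 8.19 ± 4.49 CPM in ethanol_US, 192 ± 73.5 in ethanol_PI and 39.5 ± 23.9 in CsA_PI. It rose by 4.55 ± 0.62 with stimulation and fell by 2.28 ± 0.56 with CsA (edgeR adjusted p = 0.000229 and 0.0131), with a log2 effect of −1.82 without CsA_PI 2 (adjusted p = 0.0179).

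The 4 members were not the nearest to one another in pattern. Likeness was measured as Pearson's r of log2 CPM over the 12 libraries, ranked among the 12636 genes whose mean level reached 1 CPM. Since the libraries fall into 4 groups, r mostly describes how alike the group levels are, and it is given as a description. Il17a was most like Pdf (0.996), Srgn (0.996), Rcc1l (0.995) and Kti12 (0.995), with Il17f at rank 160 (0.98). Il17f was most like Rrp9, Nop16, Tomm40 and Lyar (0.99 to 0.993), and Il22 most like Ciapin1, Hnrnpm, Prpf38b and Nsfl1c (0.957 to 0.966). Without CsA_PI 2 these genes kept ranks 1 to 4 for Il17a and Il21, while Lyar was at rank 10 for Il17f, and Prpf38b and Nsfl1c were at ranks 6 and 8 for Il22.

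Il21 was most like Nr4a2 (0.992), Slc41a1 (0.987), Slamf1 (0.987) and Btla (0.986), and its r with Il17a and Il22 was 0.868 and 0.801. These 4 genes shared with Il21 a lower level in CsA_US than in ethanol_US. They were picked for likeness to Il21 over libraries that include both groups, so that trait follows in part from the choice. Nr4a2, an orphan nuclear receptor, stood at 110 ± 20.9 and 53 ± 2.12 CPM, Slamf1, a surface receptor, at 54.4 ± 5.28 and 27.4 ± 5.66 CPM, and Btla, an inhibitory receptor, at 27.8 ± 8.64 and 14 ± 2.93 CPM in ethanol_US and CsA_US. In CsA_PI they stood at 101 ± 26, 46.6 ± 14.4 and 33.1 ± 9.63 CPM, between or near their levels in CsA_US and ethanol_US. Without CsA_PI 2 the CsA_PI means were 86.3, 38.4 and 28.3 CPM.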

How the data were processed

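The submitters' processing notes name cutadapt, kallisto and the build mm10; versions and transcript annotation are not given in the sources used here. The deposited files hold, per transcript and per the file headers, estimated counts (not scaled for depth), TPM, length and effective length, 1 file per library. Transcript identifiers were matched to GENCODE vM21 on mm10 (108214 of 109617), estimated counts and TPM were summed per gene, and counts were rounded. The unmatched 1403 transcripts held 0.494% to 0.628% of counts and were left out.

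Tests used edgeR 4.0.16 in R 4.3.3: TMM scaling, expression filter by group (minimum count 10, total 15), robust quasi-likelihood fits of all 12 libraries with a mean per group, and Benjamini-Hochberg adjustment over all genes, with calls at adjusted p under 0.05. Standard errors came from the F statistic, as the size of the log2 fold change over √F. Ratios against a group with 1 count carry an exact interval for counting error only, since reads had no molecular identifiers. The code was tested on simulated data. The members, the gene lists, the tests and most alternatives were chosen with earlier results of these data known; the fit of single transcripts, and the likeness without CsA_PI 2, were chosen after these values were seen. Named genes are the members, the defining and most changed list genes, the neighbours, and the 4 genes most like each member. A gene of the lists and a motif are not reported here. Alternatives were RLE scaling, library totals, no filter, the replicate number as a block, only the groups compared, DESeq2 1.42.0, limma 3.58.1 on log2(TPM + 1) and log2(TPM + 0.1), Il22 with Iltifb, and each library left out.

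The labels' replicate numbers were examined as pairs by correlating deviations from group means over genes. Same-numbered libraries gave r of 0.143, 0.319 and 0.197 between the vehicle groups, 0.165, 0.208 and 0.107 between the stimulated groups and 0.196, 0.325 and 0.299 between the unstimulated groups, all over 0.1. Between the CsA groups they gave 0.033, 0.11 and 0.123. The pairing comes from the numbers in the titles alone, and the main fit has no block.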

Additional observations from a re-analysis of the deposited data

Results flagged for a closer look

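Summed over their transcripts, Il17f and Il21 responded to stimulation differently with CsA than with vehicle by a direct test of that difference, the interaction term of the edgeR fit. Il22 passed that test with all 12 libraries, but it had passed the filter on low counts only through ethanol_PI, and its call held in 4 of the 12 fits that left out a library, so it is given as a value and not as an established difference. The effect of stimulation with CsA, less the effect with vehicle, was −4.74 for Il17f, −4.25 for Il21 and −7.98 for Il22, as log2 values (adjusted p = 0.0144, 0.019 and 0.0379). In vehicle these genes rose by 6.86, 6.69 and 8.16, and under CsA their log2 fold changes were 2.12, 2.44 and 0.18. The Il22 value rests on 1 count in ethanol_US and on 15 counts in CsA_US 3, without which it was −4.55 (adjusted p = 0.428). The Il21 value without CsA_US 1 was −3.4 (adjusted p = 0.192). Of the Il17f counts, 76.5% in ethanol_US and 83.3% in CsA_US were those of the noncoding transcript. On the Il17f coding transcript alone the interaction was −5.31 ± 2.15 and did not pass (edgeR on transcripts, adjusted p = 0.292).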

How the results depend on the processing

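Of 159 member values under 10 settings other than leaving out a library, 144 kept their direction and their side of the threshold, as did 198 of 228 values with a library left out. The exceptions follow, and their cause was not tested. The effect of CsA on stimulated Il22 was −4.22 with no filter and −4.22 with DESeq2 and was not called by either. Il21 in unstimulated cells was called by DESeq2 (−2.89). Il17a stimulated under CsA was not called with library totals (5.87), no filter (6.1) or limma on TPM with a pseudocount of 1 (1.37) or 0.1 (3.37). DESeq2 called Il17f (2.13) and Il21 (2.49) there, and Il22 turned to −0.14 with library totals. In the interaction, limma called Il17a (−5.33 and −6.38), the Il17f coding transcript gave −5.31 with no call, and with no filter Il21 (−4.16) and Il22 (−7.96) lost theirs. With library totals the median over all genes went from −0.02 to −0.63 for stimulation in vehicle, where 1580 genes were called higher and 5437 lower in place of 2892 and 2836. For CsA in stimulated cells it went from 0.06 to 0.40, with 2870 higher and 1193 lower in place of 1485 and 1833, and in the interaction from 0.07 to 0.43, with 950 and 531 in place of 509 and 891.

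Genes called for CsA in unstimulated cells numbered 1, against 17 with DESeq2 and 0 and 3 with limma. For stimulation under CsA they numbered 760, against 5 with library totals, 0 with only the groups compared, 1891 with DESeq2, and 38 and 30 with limma. The replicate block gave 441 genes there and changed no call of a member: with the pairing blocked, Il17a, Il17f, Il21 and Il22 gave −6.11, −5.40, −7.19 and −5.10 for CsA in stimulated cells. With only the groups compared, Il17a and Il22 in unstimulated cells and Il17a, Il21 and Il22 under CsA did not pass the filter, and that setting gives no interaction.

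Leaving out each library in turn gave, for Il22 with CsA in stimulated cells, −6.05 to −3.61. Under CsA, stimulation gave 4.61 to 7.81 for Il17a, 1.54 to 2.64 for Il17f and −1.6 to 3.55 for Il22, the latter reversed to −0.4 without CsA_US 1, −0.47 without CsA_US 2 and −1.6 without CsA_PI 3. The interaction ranged from −5.03 to −3.4 for Il21 and from −9.77 to −4.55 for Il22. Genes called ranged from 0 to 7 for CsA in unstimulated cells, from 0 to 4321 for stimulation under CsA (4321 without CsA_PI 2) and from 787 to 1865 for the interaction. Depth limits Il17a and Il22 most: each had at most 1 count in any ethanol_US library, and folds against that group carry wide counting intervals.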
